A study of Mus musculus with 11 samples.

Results

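The genes described here are 10 that make fatty acids and begin their assembly into triglycerides: Srebf1, Fasn, Scd1, Acaca, Acacb, Acly, Elovl6, Thrsp, Pnpla3 and Gpam. They were chosen by name, as the array probes whose accession belongs to one of these symbols in the RefSeq table of the mouse. All 10 had a probe that passed the filter on dim signal, and they are 10 of 22282 items tested (genes, or accessions with no symbol). Expression was measured on 1-colour Agilent arrays, 1 array for each liver sample of 11 male mice on a mostly B6SJL background with a small share of 129S6. There were 4 wild-type (WT) samples, 3 labelled β-catΔEx3 and 4 labelled β-catΔEx3:Myc, none of them treated. β-catΔEx3 is β-catenin without the stretch encoded by exon 3, a form that escapes degradation, and Myc is a growth-promoting transcription factor. The series title gives the mice as models of childhood liver cancer (hepatoblastoma) and the finding of therapeutic targets as the aim. The ages were given as 22 to 40 days, and singly as 31 days for WT replicate 4, 30 days for β-catΔEx3 replicate 3 and 29 days for β-catΔEx3:Myc replicate 4.

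The sources used here do not name the promoter or Cre line behind the alleles, nor say whether tumour or adjacent tissue was taken. The design text describes all the livers as bearing tumours, WT included, and counts the last 4 only as expressing c-Myc. Replicates are separate samples by their titles, and p-values measure the spread between these samples.

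The liver turns surplus carbohydrate into fat. Acly cleaves citrate to cytosolic acetyl-CoA, Acaca and Acacb carboxylate it to malonyl-CoA, Fasn builds palmitate from these, Elovl6 lengthens palmitate and Scd1 puts in a double bond. Gpam, a mitochondrial acyltransferase, starts glycerolipid synthesis, Pnpla3 is a lipid droplet protein, and Thrsp (Spot14) is a small protein that promotes lipogenesis. Srebf1 encodes SREBP1, the transcription factor through which insulin turns on most of these genes, and Mlxipl encodes ChREBP, the factor that does so in response to glucose.

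In the β-catΔEx3:Myc livers 9 of the 10 genes fell and none rose, and for each of the 9 every array lay below every WT array, as it did for 17.7% of all items. In the β-catΔEx3 livers 4 fell (Srebf1, Scd1, Elovl6 and Pnpla3), 1 rose (Gpam) and 5 did not pass the test. The same call (limma, adjusted p under 0.05 over all items) was made for 17.3% of all items as lower and 24.8% as higher in β-catΔEx3:Myc against WT, and for 15.4% as lower and 21.8% as higher in β-catΔEx3 against WT. Over all items 5537 were called higher and 3859 lower in β-catΔEx3:Myc, and 4849 and 3441 in β-catΔEx3. Scaling to the 75th percentile of the probes detected on all arrays turned this split to 4434 and 4741, and to 3414 and 4662, with 9 and 6 of the 10 genes called lower. The median log2 fold change of the 10 genes was -2.66 in β-catΔEx3:Myc and -2.19 in β-catΔEx3, where that of all items was 0.13 and 0.10. Both comparisons use the same WT arrays, so they are not independent of each other. In β-catΔEx3:Myc against β-catΔEx3 none of the 10 genes passed the test, where 0.13% of all items were called higher and 0.206% lower. Their median was -0.61, and 2 of the 10 had an unadjusted p under 0.05, where 10.3% of all items did.

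The array layout limits these comparisons. WT replicates 1 to 3 shared slide 1, β-catΔEx3 replicates 1 and 2 and β-catΔEx3:Myc replicates 1 and 2 shared slide 2, β-catΔEx3:Myc replicate 3 was on slide 3, and WT replicate 4, β-catΔEx3 replicate 3 and β-catΔEx3:Myc replicate 4 shared slide 4. A fit with slide as a block therefore rests on WT replicate 4 for both comparisons with WT. With it, only Srebf1 passed the test in β-catΔEx3:Myc and only Srebf1 and Pnpla3 did in β-catΔEx3, while 9 of the 10 fitted differences were still negative in each. The median of the 10 in that fit was -1.72 in β-catΔEx3:Myc and -1.20 in β-catΔEx3, where that of all items was 0.03 in both. Within slide 4, 1 array against 1, 9 of the 10 genes were lower in β-catΔEx3:Myc than in WT and 7 of 10 in β-catΔEx3. The share of all items lower there is not given, and the WT array is again replicate 4, so these counts are not independent of the blocked fit. Blocked values stand below beside each call of a named gene that they end, and as counts beside each gene list. They are not given for the 5 genes picked for a similar profile.

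Myc itself was at log2 levels of 4.65, 3.13, 2.55 and 4.98 on the β-catΔEx3:Myc arrays, 2.44, 1.39 and 2.08 on the β-catΔEx3 arrays and 2.30, -0.12, 0.22 and -0.52 on the WT arrays. A level here is the log2 signal over the array's 75th percentile, and levels of different genes cannot be set against each other. Myc was higher than in WT in β-catΔEx3:Myc (log2 fold change 3.36 ± 0.68 SE, limma adjusted p = 0.00286), with no overlap, and against β-catΔEx3 it did not pass the test (1.86 ± 0.73, adjusted p = 0.40), though every array lay higher. Ctnnb1, which encodes β-catenin, did not pass the test in β-catΔEx3 (-0.17 ± 0.15, adjusted p = 0.423) or in β-catΔEx3:Myc (-0.18 ± 0.14, adjusted p = 0.347). The place of its probe relative to exon 3 was not determined, so this checks no label. A summed level of a marker list is the log2 of the added linear signals of its genes, so the brightest genes weigh most. Summed levels of 7 hepatocyte markers (Alb, Ttr, Apoa1, Apoa2, Fgb, Serpinc1 and Ahsg) were 13.06 to 13.39 in WT, 12.78 to 12.95 in β-catΔEx3 and 12.57 to 12.89 in β-catΔEx3:Myc. None of the 7 rose, 3 fell in β-catΔEx3 and 4 fell in β-catΔEx3:Myc, of which 1 in each still passed with slide as a block.

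Promoter sequences are shown for 4 of the genes, because 3 of them (Fasn, Thrsp and Pnpla3) fell in β-catΔEx3:Myc and 1 (Gpam) did not. RefSeq's table for build GRCm38.p6 matched 9 of the 10 genes, with 12 windows in all, and had no match for Scd1. Each window is the 250 bases before an annotated transcription start, on the gene's strand. The capitals mark CCAAT boxes (CCAAT or, on the other strand, ATTGG) and GC boxes (GGGCGG or CCGCCC), and adjoining or overlapping matches run together.
Fasn, chr11:120824548-120824797, minus strand: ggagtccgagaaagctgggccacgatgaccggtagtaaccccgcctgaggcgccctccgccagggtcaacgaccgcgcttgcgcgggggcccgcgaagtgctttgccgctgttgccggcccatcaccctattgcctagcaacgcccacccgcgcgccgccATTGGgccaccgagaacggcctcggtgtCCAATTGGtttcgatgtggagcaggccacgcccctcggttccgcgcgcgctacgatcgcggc
Thrsp, chr7:97417551-97417800, minus strand: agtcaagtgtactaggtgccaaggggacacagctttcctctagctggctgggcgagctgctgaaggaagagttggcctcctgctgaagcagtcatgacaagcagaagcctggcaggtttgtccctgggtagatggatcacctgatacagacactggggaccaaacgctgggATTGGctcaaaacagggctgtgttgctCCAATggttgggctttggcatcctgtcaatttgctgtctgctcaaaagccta
Pnpla3, chr15:84167566-84167815, plus strand: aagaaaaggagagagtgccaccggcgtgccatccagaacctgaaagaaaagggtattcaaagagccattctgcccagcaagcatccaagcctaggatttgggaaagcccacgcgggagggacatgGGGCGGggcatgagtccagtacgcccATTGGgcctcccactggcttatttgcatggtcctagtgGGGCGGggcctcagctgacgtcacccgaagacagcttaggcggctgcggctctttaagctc
Gpam, chr19:55127239-55127488, minus strand: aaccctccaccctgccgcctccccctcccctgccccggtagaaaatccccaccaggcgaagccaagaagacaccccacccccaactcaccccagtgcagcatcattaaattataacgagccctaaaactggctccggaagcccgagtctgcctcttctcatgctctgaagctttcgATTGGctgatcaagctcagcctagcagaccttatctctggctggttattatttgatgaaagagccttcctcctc

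The CCAAT box, bound by NF-Y, was found in 7 of the 12 windows, of 6 genes (Srebf1, Fasn, Acacb, Thrsp, Pnpla3 and Gpam), and 33.8% of 32851 promoter windows of the same length held it. The GC box, bound by Sp1, was found in 5 of the 12, of 4 genes (Srebf1, Acly, Pnpla3 and Gpam), against 32.7% of all windows. The sterol response element letters TCACNCCAC were in 1.05% of all windows and the E-box CACGTG in 6.02%, and neither was in any of the 12, which says only that these letters are not in these stretches. Fasn held 3 CCAAT matches, of which a pair overlap between bases -62 and -55 from the start. Thrsp held 2, Pnpla3 held 1 beside 2 GC boxes, and the Gpam window shown held 1. Both strands were searched, and a match is a string of letters, not a site shown to be used.

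Srebf1, the transcription factor, stood between 2.30 and 3.34 in WT, with 2.30, 2.75, 2.96 and 3.34 on the 4 arrays. It was at -1.38, 0.84 and -0.55 on the β-catΔEx3 arrays and at -0.32, -0.89, -1.46 and -0.30 on the β-catΔEx3:Myc arrays. All 7 mutant arrays lay below the lowest WT array. Srebf1 fell 9.19-fold in β-catΔEx3 (log2 fold change -3.20 ± 0.48 SE, adjusted p = 0.000796) and 11.9-fold in β-catΔEx3:Myc (-3.58 ± 0.45, adjusted p = 0.000206). Without β-catΔEx3 replicate 2 the first of these was -3.80. It is the 1 gene of the 10 whose call stayed in both comparisons with slide as a block (-3.69, adjusted p = 0.0434, and -3.83, adjusted p = 0.0381). Which of the Srebf1 transcripts its probe reads was not determined.

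**Figure D1:**
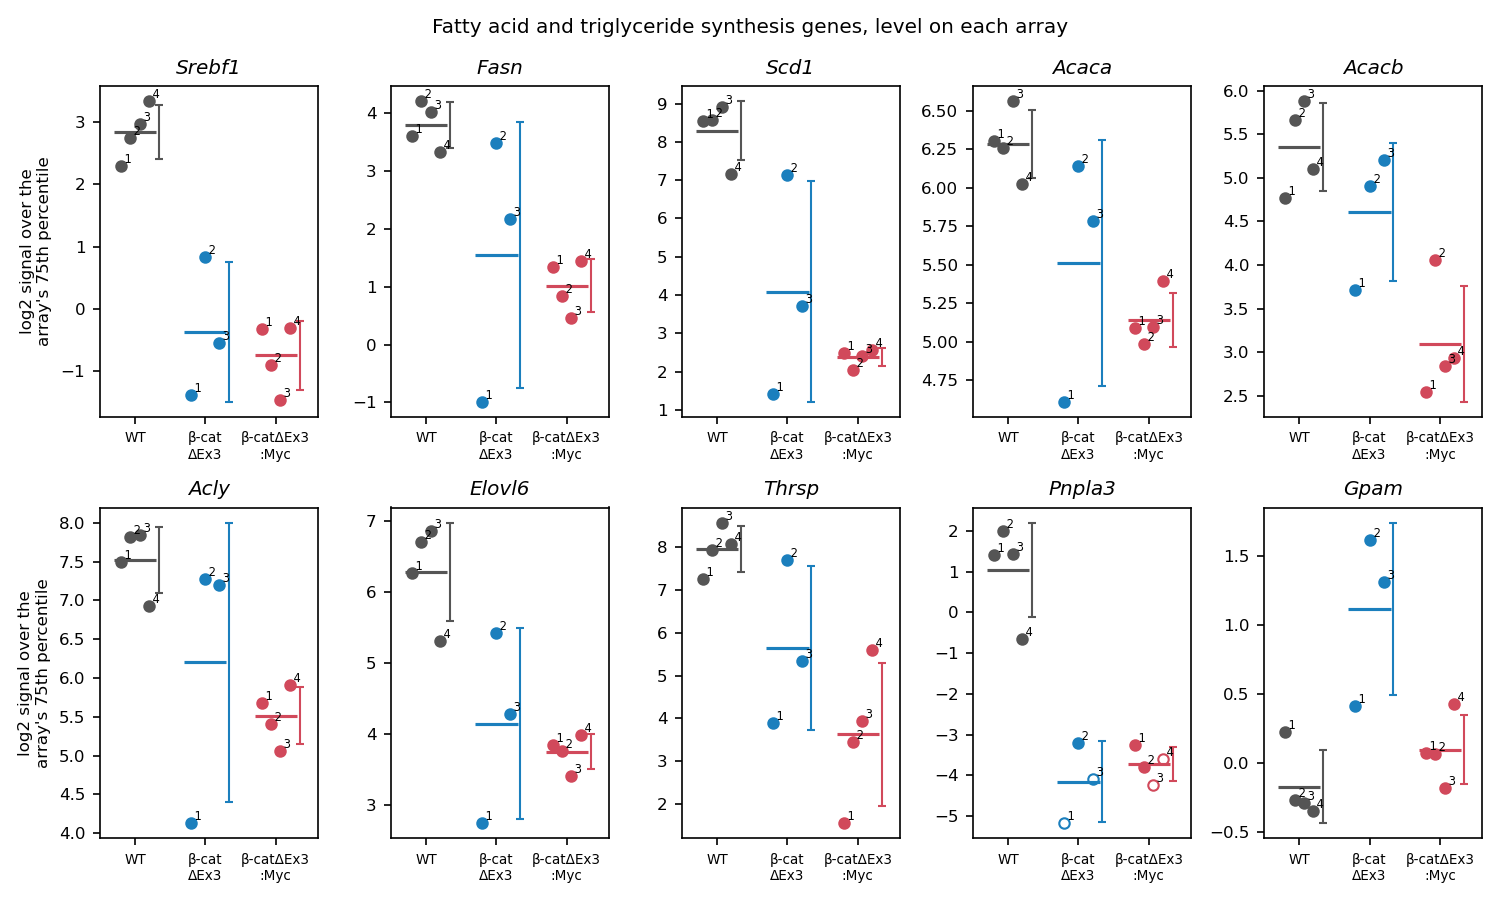
Log2 level over the array's 75th percentile (vertical axes) of each of the 10 genes on each array, by group and replicate; points are single arrays numbered by replicate, hollow where not well above background, with the group mean and SD beside them. The β-catΔEx3:Myc arrays lie below all WT arrays in 9 panels, the β-catΔEx3 arrays spread widely with replicate 1 lowest, and Gpam differs from the other 9.

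Of the enzymes that supply and activate the 2-carbon units, Acly was at 7.50, 7.81, 7.84 and 6.93 in WT, at 4.13, 7.28 and 7.20 in β-catΔEx3 and at 5.68, 5.41, 5.06 and 5.91 in β-catΔEx3:Myc. Only replicate 1 of the β-catΔEx3 arrays lay below the WT range, and all 4 β-catΔEx3:Myc arrays did. Acly fell 4.00-fold in β-catΔEx3:Myc (-2.00 ± 0.60, adjusted p = 0.0212). That call was lost with slide as a block (-0.64, adjusted p = 0.752) and without WT replicate 2 (-1.90, adjusted p = 0.0541), WT replicate 3 (-1.90, adjusted p = 0.0532) or β-catΔEx3:Myc replicate 3 (-1.85, adjusted p = 0.0552). In β-catΔEx3 the difference of -1.31 ± 0.65 did not pass (adjusted p = 0.138) and was -0.28 without replicate 1.

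Acaca, the cytosolic acetyl-CoA carboxylase that feeds synthesis, was at 6.30, 6.26, 6.56 and 6.03 in WT, at 4.61, 6.14 and 5.79 in β-catΔEx3 and at 5.09, 4.98, 5.10 and 5.40 in β-catΔEx3:Myc. It fell 2.21-fold in β-catΔEx3:Myc (-1.15 ± 0.29, adjusted p = 0.00892), a call that slide as a block ended (-0.61, adjusted p = 0.512). In β-catΔEx3, where replicate 2 lay inside the WT range, -0.78 ± 0.31 did not pass (adjusted p = 0.0736). It passed without replicate 2 (-1.09, adjusted p = 0.0195) and under quantile normalization (-1.01, adjusted p = 0.0469). It also passed with scaling over probes detected on all arrays (-0.96, adjusted p = 0.0461) and with the mean of its 3 probes (-1.01, adjusted p = 0.0495). It did not pass without replicate 1 (-0.32) or with slide as a block (-0.26). Of the other Acaca probes, 1 passed in β-catΔEx3 (-1.29 ± 0.44, adjusted p = 0.0408) and 1 did not (-0.96 ± 0.40, adjusted p = 0.0867), and both fell in β-catΔEx3:Myc (-1.68 and -1.20).

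Acacb, the carboxylase at the mitochondrial membrane, whose malonyl-CoA holds back fatty acid oxidation, was at 4.77, 5.66, 5.88 and 5.10 in WT and at 3.71, 4.91 and 5.21 in β-catΔEx3. The β-catΔEx3:Myc arrays were at 2.54, 4.06, 2.84 and 2.93, all below WT. Acacb fell 4.79-fold in β-catΔEx3:Myc (-2.26 ± 0.41, adjusted p = 0.00168), and a second probe fell too (-2.07 ± 0.46, adjusted p = 0.00497). With slide as a block the call was lost (-1.75, adjusted p = 0.234). In β-catΔEx3 -0.75 ± 0.45 did not pass (adjusted p = 0.215). The difference between the mutant groups, -1.51 ± 0.45, had an unadjusted p of 0.00635 and did not pass (adjusted p = 0.214). Replicate 1 of β-catΔEx3 lay inside the β-catΔEx3:Myc range.

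Fasn, the fatty acid synthase, was at 3.61, 4.21, 4.03 and 3.33 in WT. It was at -0.99, 3.48 and 2.17 in β-catΔEx3, a range that takes in part of the WT range at one end and lies below every β-catΔEx3:Myc array at the other. The β-catΔEx3:Myc arrays were at 1.33, 0.84, 0.45 and 1.44. Fasn fell 6.87-fold in β-catΔEx3:Myc (-2.78 ± 0.75, adjusted p = 0.013), a call lost with slide as a block (-1.70, adjusted p = 0.510). In β-catΔEx3 -2.24 ± 0.81 did not pass (adjusted p = 0.0516). It passed under quantile normalization (adjusted p = 0.0441), with scaling over probes detected on all arrays (0.0451), with normexp background (0.0450), in the authors' deposited matrix (0.0467) and with a stricter filter (0.0456). The size rested on single arrays, at -0.97 without replicate 1 and -3.21 without replicate 2, where it passed (adjusted p = 0.00758). With slide as a block the β-catΔEx3 difference was -1.35 and did not pass.

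Elovl6, the elongase of palmitate, was at 6.27, 6.71, 6.86 and 5.32 in WT, at 2.74, 5.42 and 4.28 in β-catΔEx3 and at 3.84, 3.77, 3.40 and 3.98 in β-catΔEx3:Myc. It fell 5.82-fold in β-catΔEx3:Myc (-2.54 ± 0.51, adjusted p = 0.00276). It fell 4.41-fold in β-catΔEx3 (-2.14 ± 0.55, adjusted p = 0.012), although replicate 2 there lay above WT replicate 4. The size was -1.44 without β-catΔEx3 replicate 1 and -2.78 without replicate 2. Slide as a block ended both calls, at -1.33 (adjusted p = 0.397) in β-catΔEx3:Myc and -1.04 (adjusted p = 0.516) in β-catΔEx3.

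Scd1, the desaturase that makes oleate, had the largest fitted fall of the 10 genes in β-catΔEx3:Myc. It was at 8.54, 8.56, 8.91 and 7.16 in WT and at 2.50, 2.04, 2.41 and 2.56 in β-catΔEx3:Myc, a group with an SD of 0.23. The 3 β-catΔEx3 arrays were at 1.41, 7.13 and 3.73, with an SD of 2.88, so that replicate 1 was below every β-catΔEx3:Myc array and replicate 2 was just below WT replicate 4. Scd1 fell 60.3-fold in β-catΔEx3:Myc (-5.91 ± 0.94, adjusted p = 0.000795) and 18.4-fold in β-catΔEx3 (-4.20 ± 1.02, adjusted p = 0.00906). In β-catΔEx3 the value was -2.86 without replicate 1 and -5.72 without replicate 2. Slide as a block ended both calls (-4.88, adjusted p = 0.16, and -3.15, adjusted p = 0.342). Between the mutant groups -1.71 ± 1.02 did not pass (adjusted p = 0.635).

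Thrsp was at 7.25, 7.92, 8.57 and 8.08 in WT and at 3.90, 7.70 and 5.34 in β-catΔEx3. The β-catΔEx3:Myc arrays were at 1.55, 3.44, 3.93 and 5.60, the widest spread of that group among the 10 genes (SD 1.67), and lay below WT throughout. Thrsp fell 20.1-fold in β-catΔEx3:Myc (-4.33 ± 0.89, adjusted p = 0.00325), with values from -3.63 to -4.98 when single arrays were left out, and the call was lost with slide as a block (-3.67, adjusted p = 0.232). In β-catΔEx3 -2.31 ± 0.97 did not pass (adjusted p = 0.0846), and replicate 2 was inside the WT range. Without replicate 2 it passed (-3.33, adjusted p = 0.0192), and without replicate 1 the value was -1.44.

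Pnpla3 was at 1.41, 1.999, 1.43 and -0.65 in WT, at -5.18, -3.20 and -4.09 in β-catΔEx3 and at -3.25, -3.80, -4.24 and -3.61 in β-catΔEx3:Myc. All 7 mutant arrays lay below WT replicate 4, the lowest WT array. Its signal was not well above background on β-catΔEx3 replicates 1 and 3 and β-catΔEx3:Myc replicates 3 and 4. Pnpla3 fell in β-catΔEx3 (-5.21 ± 0.61, adjusted p = 0.000212) and in β-catΔEx3:Myc (-4.78 ± 0.57, adjusted p = 0.000153), and these sizes rest partly on signals near the background. With slide as a block they were -3.50 (adjusted p = 0.0366) and -2.90, which did not pass (adjusted p = 0.0579). A second, dimmer probe was above background on all 4 WT arrays and on none of the 7 mutant arrays. It passed the filter through the WT arrays alone, and the size of its fall depends on the floor set for dim arrays. With that floor it was 26.4-fold lower in β-catΔEx3 (18.2-fold to 53.4-fold without single WT arrays). In β-catΔEx3:Myc it was 21.2-fold lower (14.7-fold to 43.0-fold). The floor sets each dim array to the lowest signal that counted as above background there, or to the probe's own if higher. Dim signals could lie as high as -3.61 (the first probe on β-catΔEx3:Myc replicate 4). A higher floor would give smaller falls, so these are not strict lower limits.

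Gpam departed from the other 9. It was at 0.22, -0.27, -0.30 and -0.35 in WT, at 0.42, 1.62 and 1.32 in β-catΔEx3 and at 0.07, 0.06, -0.18 and 0.43 in β-catΔEx3:Myc. All 3 β-catΔEx3 arrays lay above all 4 WT arrays, whereas the β-catΔEx3:Myc arrays overlapped both groups. Gpam rose 2.45-fold in β-catΔEx3 (1.29 ± 0.28, adjusted p = 0.00514), a call lost with slide as a block although the size was larger (1.69, adjusted p = 0.0767). In β-catΔEx3:Myc 0.27 ± 0.26 did not pass (adjusted p = 0.433). Between the mutant groups -1.02 ± 0.28 did not pass (adjusted p = 0.178), and it passed without β-catΔEx3 replicate 1 (-1.37, adjusted p = 0.0399).

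**Figure D2:**
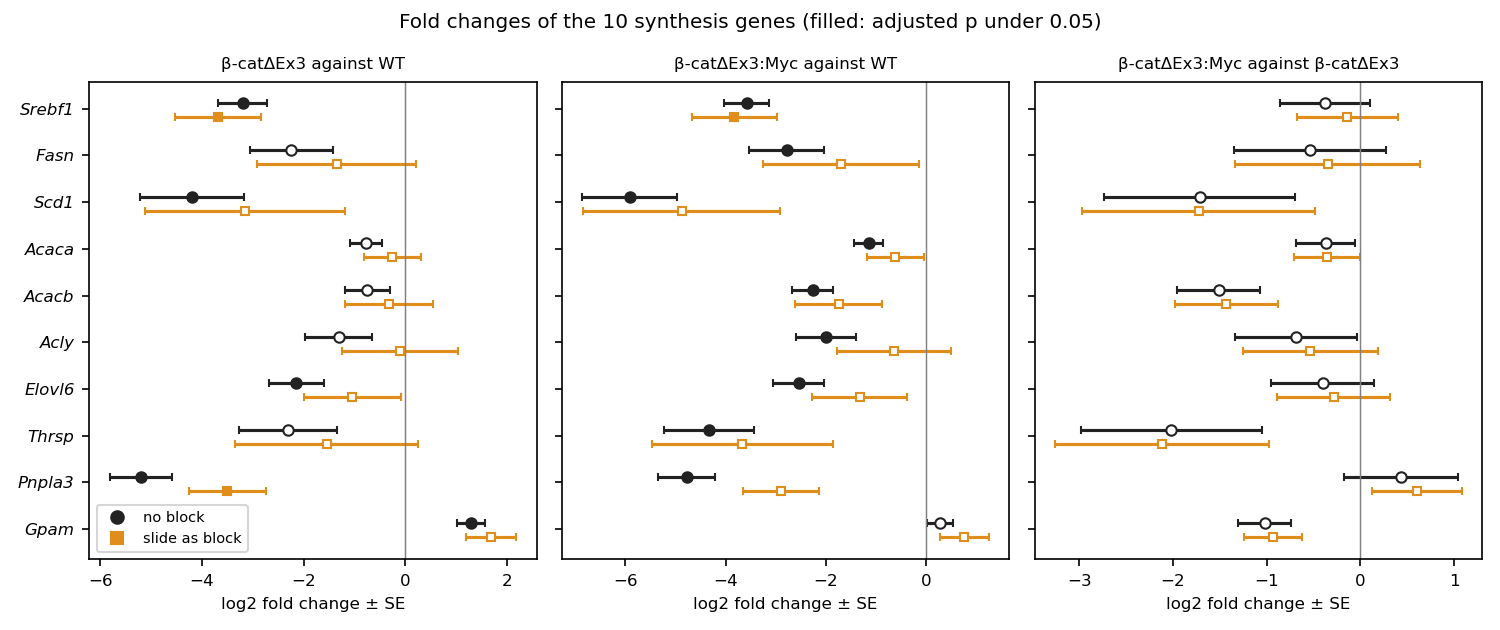
Log2 fold change with its SE (horizontal axes) of the 10 genes in the 3 comparisons, without a block (black) and with slide as a block (orange); filled symbols passed the test. In β-catΔEx3:Myc against WT 9 black symbols are filled and 1 orange one is, and in β-catΔEx3:Myc against β-catΔEx3 none is filled.

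The remaining differences between the mutant groups were -0.38 for Srebf1, -0.54 for Fasn, -0.37 for Acaca, -0.69 for Acly, -0.40 for Elovl6, -2.02 for Thrsp and 0.43 for Pnpla3, with adjusted p of 0.522 or more. Acly passed without β-catΔEx3 replicate 1 (-1.73, adjusted p = 0.0477). A missed threshold does not show that the mutant groups are alike. Over the 10 genes the median SD was 1.23 in β-catΔEx3, 0.47 in WT and 0.39 in β-catΔEx3:Myc, where over all items it was 0.32, 0.24 and 0.31.

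That spread ran the same way in all 10 genes. On β-catΔEx3 replicate 1 all 10 lay below their group mean, and on replicate 2 none did, while 43.6% of all items lay below it on replicate 1. The median over the 10 genes of the level minus the WT mean was -3.80, -0.38 and -1.82 on β-catΔEx3 replicates 1 to 3. It was -2.64, -2.74, -3.11 and -2.36 on β-catΔEx3:Myc replicates 1 to 4, and between -0.36 and 0.35 on the WT arrays. In these medians β-catΔEx3 replicate 2 came near WT replicate 4 and replicate 1 lay below every β-catΔEx3:Myc array. Replicate 1 was below all WT arrays for 9 of the 10 genes, where 30.9% of all items were, and replicate 3 for 7, where 32.9% were. Replicate 2 was below them for 3 of the 10, a share near the 31.2% of all items.

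After subtraction of the group means, all 45 pairs of the 10 genes correlated positively over the 11 arrays, with a median Pearson r of 0.68. The closest pairs were Fasn with Acly (0.96), Acaca with Acly (0.95), Fasn with Acaca (0.95) and Scd1 with Elovl6 (0.93), and the loosest was Thrsp with Pnpla3 (0.25). The 11 points share array scaling, and β-catΔEx3 replicates 1 and 2 weigh most in them. With the group means kept in, 9 genes had an r of 0.855 to 0.986 with the mean of the 10 standardized profiles and Gpam had -0.01.

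The genes outside the 10 whose levels followed that mean profile most closely over the 11 arrays were Ebp (r = 0.971), Serpinh1 (0.968), Crip1 (0.964), Gngt1 (0.962) and Piezo2 (0.961). Ebp, a sterol isomerase of cholesterol synthesis, was at 8.54, 8.58, 8.50 and 8.43 in WT, at 7.25, 8.48 and 7.73 in β-catΔEx3 and at 7.30, 7.65, 7.33 and 7.60 in β-catΔEx3:Myc. It repeats the order of the β-catΔEx3 arrays in a narrower range. Serpinh1, a collagen chaperone, had log2 fold changes against WT of -1.83 ± 0.36 in β-catΔEx3 and -2.65 ± 0.34 in β-catΔEx3:Myc. The mean profile is lower in the mutant groups than in WT, so genes picked for following it are lower too. Such falls, and the order of the arrays in Ebp, come from the choice and are no separate result. Piezo2, a mechanosensitive channel, was not well above background on any of the 7 mutant arrays.

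Among 21 other regulators of lipid synthesis, 3 rose and 3 fell in β-catΔEx3 and 3 rose and 6 fell in β-catΔEx3:Myc, with medians of -0.02 and 0.04. Over all items 21.8% were called higher and 15.4% lower in β-catΔEx3, and 24.8% and 17.3% in β-catΔEx3:Myc. The counts of this list and of those that follow are to be read beside these shares. With slide as a block 1 of the 3 that rose and 2 of the 3 that fell still passed in β-catΔEx3, and 1 of 3 and 1 of 6 in β-catΔEx3:Myc. Ppargc1b, a transcriptional coactivator named here after its value was seen, turned its sign, from 1.31 ± 0.46 (adjusted p = 0.0403) to -0.33 (adjusted p = 0.785) in β-catΔEx3:Myc. Mlxipl was at 7.43, 6.91, 7.01 and 7.55 in WT, at 6.02, 5.30 and 5.71 in β-catΔEx3 and at 5.16, 5.42, 5.67 and 5.45 in β-catΔEx3:Myc. Unlike the 10 genes it was no lower on β-catΔEx3 replicate 1 than on replicates 2 and 3. It fell 2.93-fold (-1.55 ± 0.22, adjusted p = 0.000634) and 3.48-fold (-1.80 ± 0.21, adjusted p = 0.000129), and both calls stayed with slide as a block. Pparg, a nuclear receptor of fat cells that also drives lipid storage in liver, was at 2.17, 1.89, 1.82 and 1.69 in WT, at 4.78, 4.36 and 5.05 in β-catΔEx3 and at 4.25, 4.61, 4.77 and 4.06 in β-catΔEx3:Myc. It rose 7.15-fold (2.84 ± 0.22, adjusted p = 1.99e-05) and 5.77-fold (2.53 ± 0.21, adjusted p = 1.74e-05), also with slide as a block (adjusted p = 0.00759 and 0.0115). Mid1ip1, a partner of acetyl-CoA carboxylase related to Thrsp, fell in β-catΔEx3:Myc (-1.80 ± 0.53, adjusted p = 0.0187), a call lost without WT replicate 1 or β-catΔEx3:Myc replicate 3 (range with single arrays left out -1.96 to -1.58), and with slide as a block (-1.12, adjusted p = 0.519).

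Of 12 genes that supply carbon and NADPH, 1 rose and 5 fell in β-catΔEx3 and 1 rose and 6 fell in β-catΔEx3:Myc, with medians of -0.46 and -0.66. With slide as a block the 1 that rose and 1 of the 5 that fell still passed in β-catΔEx3, and 0 and 1 in β-catΔEx3:Myc. Pklr, the liver pyruvate kinase, fell 5.86-fold in β-catΔEx3 (-2.55 ± 0.25, adjusted p = 6.86e-05) and 9.01-fold in β-catΔEx3:Myc (-3.17 ± 0.23, adjusted p = 8.13e-06). Pgd, an NADPH-making enzyme of the pentose phosphate pathway, rose 8.42-fold and 4.83-fold, and the second call was lost with slide as a block (2.43, adjusted p = 0.0555).

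**Figure D3:**
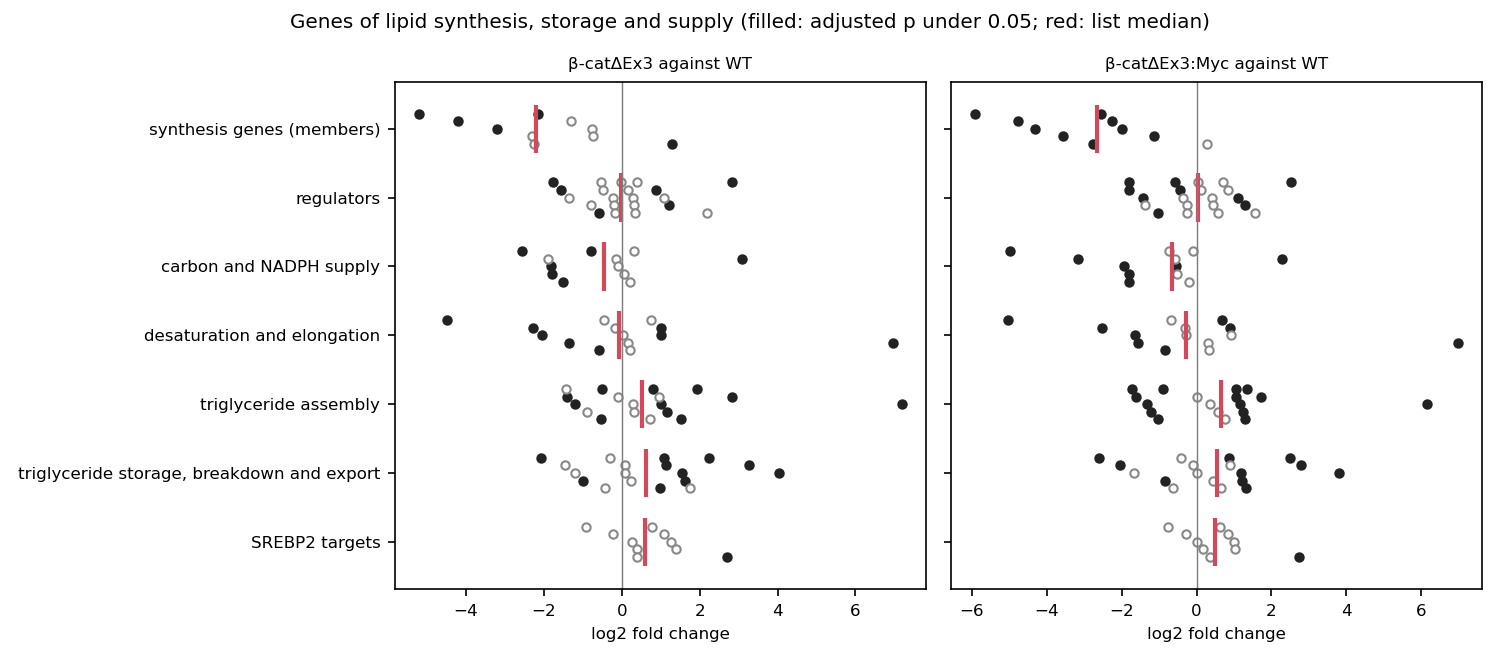
Log2 fold change (horizontal axes) of every tested gene of the 7 gene lists in the 2 comparisons with WT; points are genes, filled where they passed the test, and red bars are list medians. The medians of the 10 synthesis genes are -2.19 and -2.66, and those of the assembly and storage lists lie between 0.52 and 0.66.

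Of 14 other desaturases, elongases and related enzymes, 3 rose and 5 fell in each mutant group, of which 1 and 2 still passed in each with slide as a block. Elovl7, an elongase of long saturated chains, was at -0.53, -0.26, -0.75 and -1.91 in WT and between 4.68 and 6.81 on all 7 mutant arrays. It rose 125-fold in β-catΔEx3 (6.97 ± 0.60, adjusted p = 3.33e-05) and 126-fold in β-catΔEx3:Myc (6.98 ± 0.55, adjusted p = 1.46e-05). Elovl5, which lengthens polyunsaturated chains, fell 4.82-fold and 5.75-fold (-2.27 ± 0.35, adjusted p = 0.000828, and -2.52 ± 0.32, adjusted p = 0.000225), and its β-catΔEx3 call was lost with slide as a block (-2.10, adjusted p = 0.0623). Elovl3 was not well above background on any mutant array. With the floor used for Pnpla3 it was 11.8-fold lower in β-catΔEx3 and 8.89-fold lower in β-catΔEx3:Myc. The WT group itself ran from -3.58 to 2.66. These falls are not strict lower limits either, and they rest mostly on WT replicate 4. Without it they were 4.80-fold and 3.62-fold, without WT replicate 2 they were 18.2-fold and 13.7-fold, and without WT replicate 3 they were 20.3-fold and 15.3-fold.

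Of 18 genes of triglyceride assembly, 7 rose and 4 fell in β-catΔEx3 and 8 rose and 6 fell in β-catΔEx3:Myc, with medians of 0.52 and 0.66. Under the slide block 2 of the 7 and 1 of the 4 still passed in β-catΔEx3, and 2 of the 8 and 3 of the 6 in β-catΔEx3:Myc. Mogat2, which acylates monoacylglycerol and is best known from the intestine, was at -0.65, -0.16, -0.61 and -0.29 in WT, at 5.98, 7.30 and 6.99 in β-catΔEx3 and at 6.47, 5.11, 5.88 and 5.44 in β-catΔEx3:Myc. It rose 145-fold (7.18 ± 0.36, adjusted p = 1.63e-06) and 71.0-fold (6.15 ± 0.34, adjusted p = 2.11e-06). Lpin3, a phosphatidate phosphatase, rose 7.08-fold and 3.27-fold, and the second call was lost with slide as a block (1.16, adjusted p = 0.114). Gpat3, an acyltransferase of the endoplasmic reticulum that catalyses the step Gpam does, rose 3.83-fold (1.94 ± 0.36, adjusted p = 0.00227) and 2.08-fold (1.05 ± 0.33, adjusted p = 0.0258). The second of these was lost without WT replicate 2 or 3 or β-catΔEx3:Myc replicate 1 or 2 (range 0.77 to 1.24), and both were lost with slide as a block (1.39 and 0.55, adjusted p = 0.218 and 0.618).

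Of 18 genes of triglyceride storage, breakdown and export, 8 rose and 2 fell in β-catΔEx3 and 7 rose and 3 fell in β-catΔEx3:Myc, with medians of 0.62 and 0.54. Under the block 3 of the 8 and 0 of the 2 still passed in β-catΔEx3, and 3 of the 7 and 1 of the 3 in β-catΔEx3:Myc. Cidec, which enlarges lipid droplets, was at -1.39, -1.75, -1.34 and -2.14 in WT, at 3.38, 1.46 and 2.30 in β-catΔEx3 and at 2.19, 1.78, 2.81 and 1.80 in β-catΔEx3:Myc. It rose 16.4-fold (4.04 ± 0.42, adjusted p = 0.000109) and 14.0-fold (3.80 ± 0.39, adjusted p = 6.6e-05), and both calls stayed with slide as a block. Plin4, a droplet coat protein, rose (3.27 ± 1.01, adjusted p = 0.0274, and 2.78 ± 0.94, adjusted p = 0.0346). Its values without single arrays ran from 2.29 to 4.77 and from 2.35 to 3.15, several of them not past the threshold, and slide as a block ended both calls (adjusted p = 0.121 and 0.137). Mgll, the monoacylglycerol lipase, fell 4.19-fold and 6.07-fold, and the first of these was lost with slide as a block (-2.36, adjusted p = 0.051).

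Of 10 targets of SREBP2, the related factor that drives cholesterol synthesis, 1 rose, none fell and 9 did not pass the test in each mutant group. Neither call stayed with slide as a block. Their medians were 0.59 in β-catΔEx3 and 0.49 in β-catΔEx3:Myc. The median of the 10 targets minus the WT mean was -1.85, 2.18 and 1.95 on β-catΔEx3 replicates 1 to 3, so replicate 1 stood low for them as it did for the 10 synthesis genes, while replicates 2 and 3 stood above WT. On β-catΔEx3:Myc replicates 1 to 4 it was 0.69, 0.80, 0.00 and 0.63. None of the genes in the lists above passed the test between the mutant groups.

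**Figure D4:**
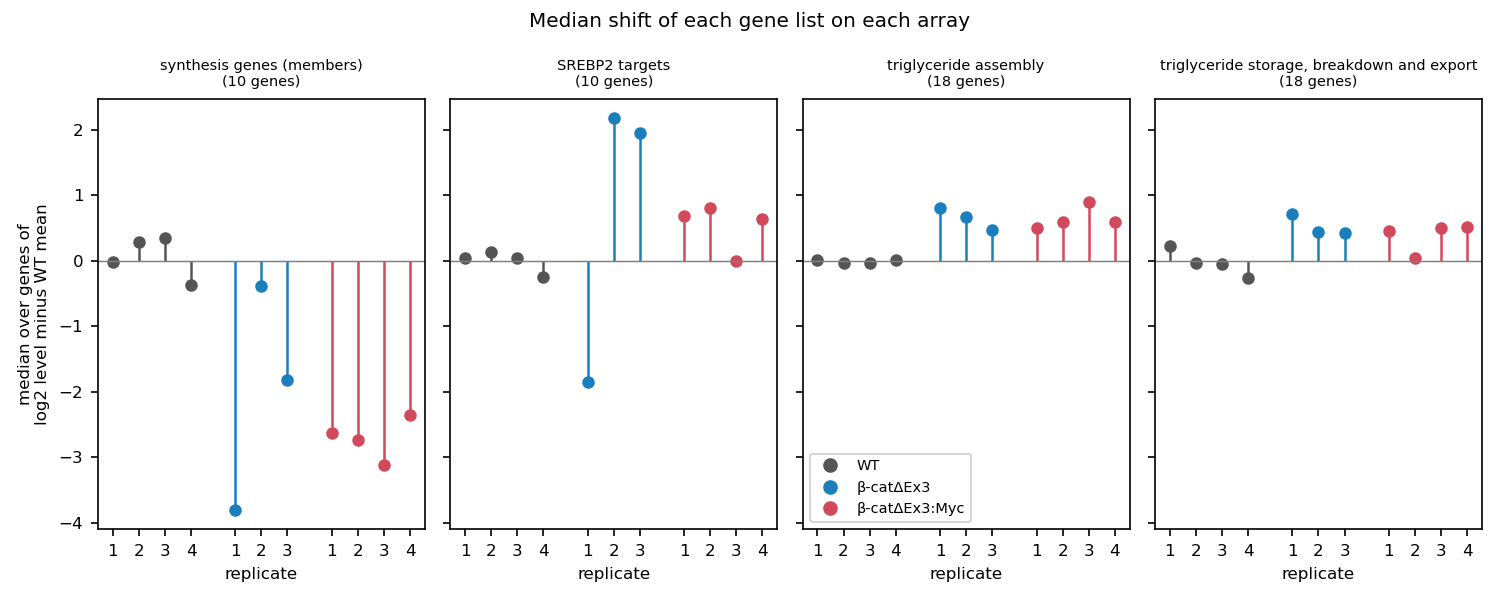
Median over the genes of each list of the log2 level minus the WT mean (vertical axis) on each array, by group and replicate. The medians of the 10 synthesis genes are lowest on β-catΔEx3 replicate 1 (-3.80). They lie below those of all WT arrays on the mutant arrays, but on β-catΔEx3 replicate 2 (-0.38) barely below WT replicate 4 (-0.36). The SREBP2 targets are lowest on β-catΔEx3 replicate 1 at -1.85, and the assembly and storage lists lie at or above 0 on all 7 mutant arrays.

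Markers of several other cell types also differed between the groups, not all of them downwards. In whole liver tissue fewer cells of a type and less RNA per cell cannot be told apart. Of 5 measured macrophage markers all 5 fell in both mutant groups, with summed levels of 7.44 to 8.02 in WT, 3.99 to 5.30 in β-catΔEx3 and 3.83 to 5.45 in β-catΔEx3:Myc. Of 6 endothelial markers 3 and 4 fell, and of 6 stellate cell markers 2 and 5. None of the 5 macrophage markers still passed with slide as a block in either group, 0 and 2 of the endothelial ones did, and 1 and 2 of the stellate cell ones. Of 5 lymphocyte markers 3 fell in each group and 1 rose in β-catΔEx3:Myc, and of 4 erythroid markers 2 fell in each. Of 5 biliary markers 1 rose in β-catΔEx3 and 1 fell in β-catΔEx3:Myc, and none of 3 neutrophil markers passed the test. With slide as a block 1 erythroid marker still passed in each group and no lymphocyte or biliary one did. Pparg, Cidec and Plin4 are also genes of fat cells. Of 6 fat cell markers 4 (Adipoq, Retn, Lep and Plin1) were too dim to be tested and neither of the other 2 (Cfd and Fabp4) passed the test, with summed levels of 2.92 to 3.42 in WT, 3.40 to 3.55 in β-catΔEx3 and 2.41 to 3.93 in β-catΔEx3:Myc. Fabp4 makes up most of these sums. The part of these cell types in the results was not tested.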

How the data were processed

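The 1-colour Cy3 arrays were read with Agilent Feature Extraction 10.7.1.1, per the file headers, and the authors deposited processed signals as intensity on a linear scale, background-subtracted. A second deposited file holds log2 values (median 4.51 on every array, probes ranked as in the scanner files), used here as an alternative. How these values were normalized was not tested here.

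Outlier spots (137 to 209 an array) were left out and spots of a probe were averaged. Levels are log2 processed signal minus the array's 75th percentile (192.6 to 303.6 intensity units). A probe had to be flagged well above background on 3 or more arrays (29695 of 55681 passed), and 47.8% to 52.4% of probes were so on an array. No spot was saturated. The number of arrays limits the precision. Each gene is given by its brightest probe, and 15 probes matched the 10 genes. Values of a gene's other probes come from a separate fit over the 29695 probes that passed. Its adjusted p differ slightly from the main ones (0.0764 for the main Acaca probe in β-catΔEx3 against WT). Symbols came from unversioned RefSeq accessions (26582 probes matched, 29099 did not).

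Limma 3.58.1 in R 4.3.3 (with data.table, version 1.17.8) fitted 3 group means to 11 arrays, with Benjamini-Hochberg adjustment over 22282 items, 2-sided, threshold 0.05 (residual df 8, prior df 2.52). The scripts were tested on simulated data. The genes and lists were chosen with earlier results of these data known. Genes named from a list are its up to 3 called genes with the largest fold change against WT, to which the 5 most similar profiles, Myc and Ctnnb1 were added. Some results under this rule are not reported here. For the normexp alternative (offset 50) median foreground signals were used, since the files read here hold no mean signal. Alternatives were quantile normalization, other scalings, filters and probe rules, the deposited matrix, slide as a block, only 2 groups' arrays and leaving out each array.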

Additional observations from a re-analysis of the deposited data

Results flagged for a closer look

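The Gpam level of WT replicate 1 (0.22) lay far above the other 3 WT arrays, which were between -0.35 and -0.27, by Dixon's criterion for a group of 4. It was 1 of 20 groups of 4 arrays examined, and chance flags about 1 in 20. Without this array the Gpam difference between β-catΔEx3 and WT stayed positive and was still called.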

How the results depend on the processing

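With slide as a fixed block, genes called higher in β-catΔEx3 against WT went from 1 to 0, genes called lower from 4 to 2, and genes called lower in β-catΔEx3:Myc against WT from 9 to 1. Both WT comparisons then rest on WT replicate 4, and calls over all items also became fewer (947 higher and 872 lower in β-catΔEx3, 942 and 990 in β-catΔEx3:Myc). When each array was left out in turn, the genes called lower numbered 4 to 7 in β-catΔEx3 (7 without its replicate 2), 8 to 9 in β-catΔEx3:Myc and 0 to 2 between the mutant groups (2 without β-catΔEx3 replicate 1). The sign turned only between the mutant groups, for values that did not pass the test. With an array left out, Srebf1 ran from -0.89 to 0.22, Fasn from -1.81 to 0.43 and Elovl6 from -1.10 to 0.23, each lowest without β-catΔEx3 replicate 1 and highest without replicate 2. Pnpla3 ran from -0.080 to 0.91 and was -0.13 with normexp background. Apart from these, of 300 fold changes under other settings 280 kept their call and direction, 11 lost and 8 gained a call, and of 330 with an array left out 318 kept both, 3 lost and 5 gained a call. Scaling over probes detected on all arrays moved the median of all items to -0.08 in β-catΔEx3 and -0.01 in β-catΔEx3:Myc (0.10 and 0.13 as reported). The cause of these changes was not tested. No paired analysis was possible because the labels carry no number shared between groups.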
